A study of Rattus norvegicus with 21 samples.

Results

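The matrix and fibrosis genes described here are 10 genes of cultured rat heart cells that build, organise or remodel the extracellular matrix or signal to the cells that make it. They are the collagen genes Col1a1 (ENSRNOG00000003897), Col1a2 (ENSRNOG00000011292) and Col3a1 (ENSRNOG00000003357), the adhesive glycoproteins Fn1 (ENSRNOG00000014288) and Spp1 (ENSRNOG00000043451), the matricellular genes Ccn2 (ENSRNOG00000015036) and Ccn1 (ENSRNOG00000014350), the protease Mmp2 (ENSRNOG00000016695), its family's inhibitor Timp1 (ENSRNOG00000010208) and the cytokine Tgfb1 (ENSRNOG00000020652). They were chosen by name from what is known of cardiac fibrosis and found by Ensembl ID. All 10 were among the 30560 IDs of each of the 2 count tables, and all 10 passed the filter on low counts that left 18173 genes for testing in the first table (knockdown) and 16153 in the second (overexpression).

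Fibrillar collagens and fibronectin form the scaffold between heart cells, and in the heart they are made mainly by fibroblasts. Transforming growth factor β, the product of Tgfb1, is the best known signal for their production, and CCN2 and CCN1 are secreted proteins whose genes respond to that signal and to the mechanosensitive YAP and TEAD factors. Matrix metalloproteinases cut matrix proteins, and tissue inhibitors of metalloproteinases block them, so the turnover of the matrix depends on both.

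The cultures were neonatal rat ventricular myocytes (NRVMs), heart muscle cells taken from newborn rats, and the study asked how the zinc finger transcription factor KLF2 bears on hypertrophic growth. In the knockdown experiment the cells received a negative control small interfering RNA (siNeg) or one against Klf2 (siKlf2) for 12 h and then no agent or 100 µM phenylephrine (PE), an α1-adrenergic agonist that makes cardiomyocytes grow, for 36 h. In the overexpression experiment they had no agent or PE for 12 h and then an adenovirus with green fluorescent protein (AdGFP) or with Klf2 (AdKlf2) for another 24 h. The groups with PE in that experiment are also labelled 100 µM and 36 h. Each of the 4 knockdown groups had 2 RNA sequencing libraries, and each of the 4 overexpression groups had 3. All groups were kept in DMEM with an insulin, transferrin and selenium supplement and antibiotics. The rats' strain and exact age, whether hearts were pooled, and the promoter in the virus are not given in the sources used here. Klf2's own transcript was not analysed here, so knockdown and overexpression are as labelled and were not checked, and a KLF2 comparison means siKlf2 against siNeg or AdKlf2 against AdGFP. Neither the interfering RNA nor the virus is stated to act on 1 cell type. Nothing in the labels says that libraries of a group came from separate cultures, and the p-values then reflect library-to-library spread that may be technical only.

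Knockdown libraries held 181101876 to 224082309 counts each, and overexpression libraries 32693762 to 76138723. The 3 libraries of AdGFP alone differed from the rest, since 539 to 776 of their genes held 1 to 5 counts and the remaining libraries of that table had 1728 to 2022 such genes. Results that use them are AdKlf2 against AdGFP without PE, PE in AdGFP and the overexpression interaction, and the part of this difference in those results was not tested. Levels are given in CPM, the usual per-million scale, with each total first multiplied by its TMM factor. Changes are log2 fold changes with standard errors (SE) from edgeR's quasi-likelihood test, and a gene was called when its Benjamini-Hochberg adjusted p over all genes of the table was under 0.05. Scaling to plain totals moved the median log2 fold change of all genes by -0.04 to -0.27, depending on the comparison. The 2 tables were normalized separately, so levels are compared within a table only. CPM is not corrected for gene length, so a count ratio of 2 genes is compared between groups only and does not say which gene is more abundant.

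**Figure D1:**
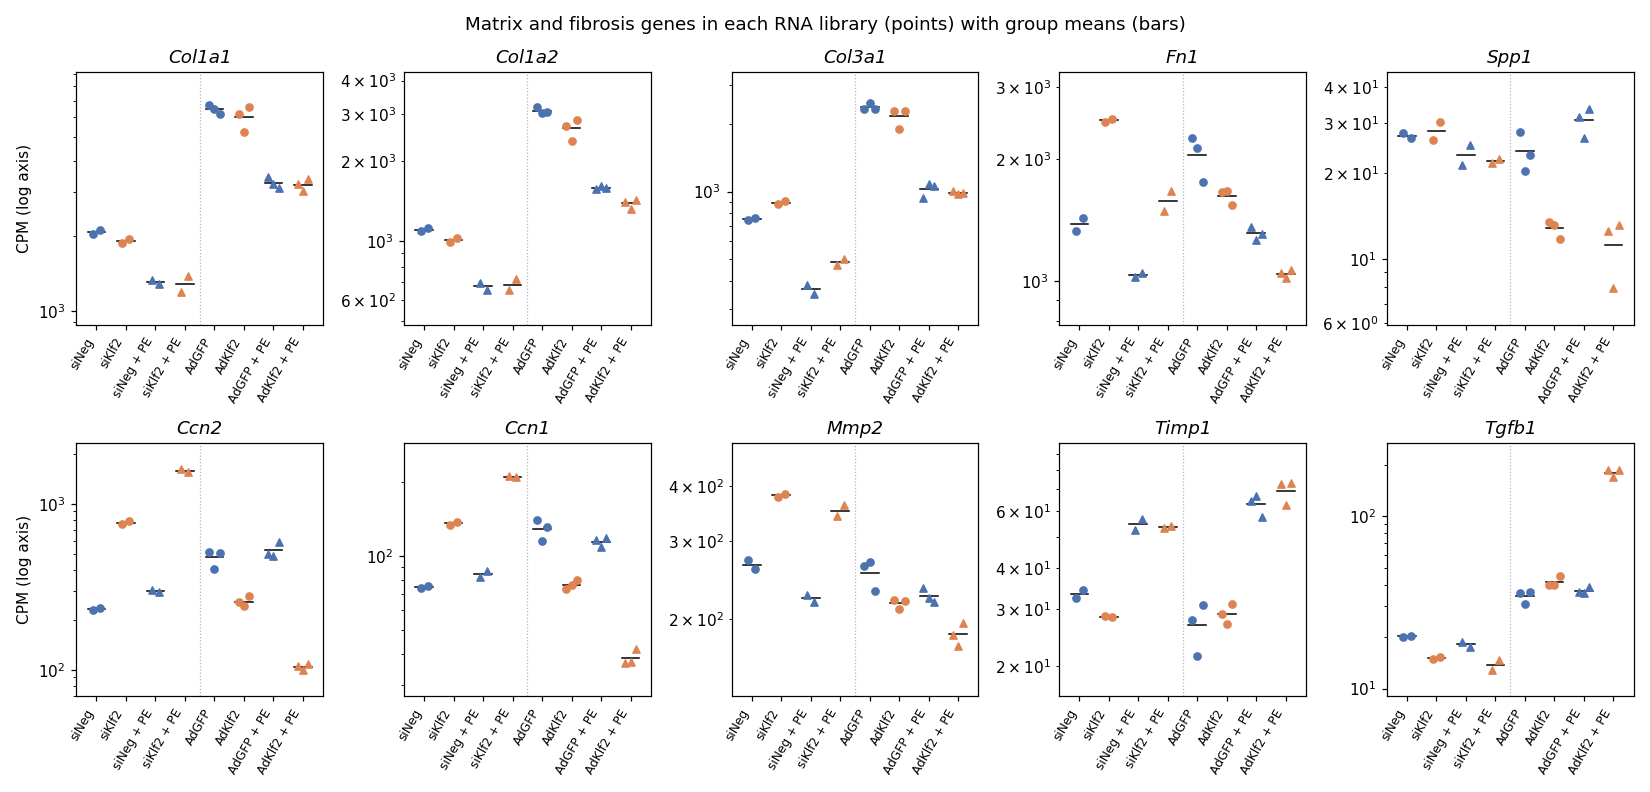
CPM (log axis) of each of the 10 genes in every library, with a panel per gene, points for libraries, bars for group means, circles without PE, triangles with PE, blue for controls and orange for siKlf2 or AdKlf2. The knockdown table is left of the dotted line and the overexpression table right of it, and the axis range differs between panels. The collagens are lower in every PE library of a table than in its libraries without PE, Ccn2 and Ccn1 are highest in siKlf2 with PE and lowest in AdKlf2 with PE within their tables, and Tgfb1 reaches 168 to 186 CPM only in AdKlf2 with PE.

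The 3 fibrillar collagen genes were lower with PE in every arm and changed little between siKlf2 and siNeg or between AdKlf2 and AdGFP. Col1a1, which encodes the α1 chain of type I collagen, stood at 2028 and 2106 CPM in siNeg, 1875 and 1946 in siKlf2, 1323 and 1280.4 in siNeg with PE, and 1194 and 1377 in siKlf2 with PE. With the viruses its level was 6721, 6461 and 6216.5 CPM in AdGFP, 6189, 5238 and 6635 in AdKlf2, 3444, 3226 and 3117 in AdGFP with PE, and 3225, 3036 and 3392 in AdKlf2 with PE. Every library with PE lay below every library without it in the same table, while siKlf2 with PE spanned siNeg with PE and the AdKlf2 libraries overlapped those of AdGFP at both PE states. The log2 fold change of Col1a1 with PE was -0.67 (SE 0.0569, adjusted p = 2.02e-06) in siNeg, -0.57 in siKlf2, -0.99 (SE 0.0673, adjusted p = 2.09e-09) in AdGFP and -0.90 in AdKlf2. None of its KLF2 comparisons was called, with log2 fold changes of -0.11 (adjusted p = 0.115) and -0.02 (0.815) in siKlf2 and -0.10 (0.26) and -0.02 (0.812) in AdKlf2, each without and with PE. The difference without PE in siKlf2 was called with no filter (-0.11, adjusted p = 0.0235) and with only the 2 groups compared (-0.11, 0.0118). Without siKlf2 with PE replicate 1 or 2 its value was -0.10 in each fit. Scaled to library totals, both siKlf2 differences of Col1a1 were called lower, at -0.31 and -0.28.

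Col1a2 encodes the α2 chain that joins 2 α1 chains in type I collagen. It was at 1086 and 1119 CPM in siNeg, 989.9 and 1023 in siKlf2, 697 and 655 in siNeg with PE, and 653 and 717 in siKlf2 with PE. Across the virus libraries it was at 3189, 3020.3 and 3051 CPM in AdGFP, 2703, 2379 and 2855 in AdKlf2, 1565, 1607 and 1578 in AdGFP with PE, and 1404, 1322 and 1418 in AdKlf2 with PE. There the order from high to low was AdGFP and AdKlf2 without PE, then AdGFP and AdKlf2 with it, and no neighbours overlapped, whereas in the knockdown table the groups with PE overlapped each other. PE lowered Col1a2 in all 4 arms, by log2 fold changes of -0.71, -0.55, -0.96 and -0.94 in siNeg, siKlf2, AdGFP and AdKlf2. AdKlf2 lowered it at both PE states, by -0.22 (SE 0.0542, adjusted p = 0.00322) without PE and -0.20 (SE 0.0543, adjusted p = 0.00381) with PE, which is a 1.17-fold and a 1.15-fold difference. It was also called lower in siKlf2 without PE, at -0.13 (SE 0.0471, adjusted p = 0.0344), but this call was lost in the fits without siNeg replicate 1 or 2 or siKlf2 replicate 1 or 2 (adjusted p = 0.0626, 0.182, 0.223 and 0.0655) and with RLE size factors (0.0647). With PE the siKlf2 difference was 0.02 (adjusted p = 0.761), and it turned to -0.25 (adjusted p = 0.000831) when libraries were scaled to their totals.

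Col3a1 encodes type III collagen, which assembles with type I into fibrils. Its levels were 749.6 and 765 CPM in siNeg, 882 and 905 in siKlf2, 384 and 350.2 in siNeg with PE, and 469 and 499 in siKlf2 with PE, so siKlf2 lay above siNeg at both PE states without overlap. Under AdGFP and AdKlf2 they were 2342, 2482 and 2348 CPM in AdGFP, 2290.1, 1906 and 2298 in AdKlf2, 932, 1077 and 1059 in AdGFP with PE, and 1003, 978 and 989.8 in AdKlf2 with PE, with AdKlf2 inside the range of AdGFP when PE was present. PE gave Col3a1 log2 fold changes of -1.04 (SE 0.0466) in siNeg, -0.88 in siKlf2, -1.23 (SE 0.0656) in AdGFP and -1.13 in AdKlf2, the farthest from 0 of the 3 collagens in each arm. Its fall was 2.06-fold in siNeg and 2.34-fold in AdGFP. Col3a1 was the collagen that rose in siKlf2, by 0.24 (SE 0.0461, adjusted p = 0.00101) without PE and 0.40 (SE 0.0462, adjusted p = 2.18e-05) with PE. The rise without PE was not called when libraries were scaled to their totals (0.04, adjusted p = 0.507). Its AdKlf2 differences were not called, at -0.14 (adjusted p = 0.0959) without PE and -0.05 (0.548) with PE. The first was called by DESeq2 (adjusted p = 0.0413) and with library totals (-0.18, adjusted p = 0.036).

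Together the 3 collagens took 0.441% ± 0.0114 (SD, n = 2) of all counts in siNeg, 0.373% ± 0.00334 in siKlf2, 0.245% ± 0.0132 in siNeg with PE and 0.214% ± 0.0169 in siKlf2 with PE. In the overexpression table their share was 1.28% ± 0.0354 (SD, n = 3) in AdGFP, 1.13% ± 0.131 in AdKlf2, 0.573% ± 0.0147 in AdGFP with PE and 0.510% ± 0.0143 in AdKlf2 with PE. These shares are of plain library totals, without the TMM factors used for CPM. Plain totals moved the siKlf2 log2 fold changes of all genes by a median of -0.20 without PE and -0.27 with PE. Fibroblasts are the known main source of these transcripts in the heart, and every library held them. In bulk RNA, fewer cells of a type and less RNA per cell cannot be told apart, so the shares give no number of fibroblasts. Marker lists of fibroblasts, cardiomyocytes and other heart cells were not analysed here, because the table of gene names held no Ensembl IDs, and the labelled cell type was therefore not checked against its markers. The count ratio of Col1a1 to Col1a2 stayed between 1.83 and 1.95 in the 8 knockdown libraries. In the other table it was 2.04 to 2.14 in AdGFP and 1.98 to 2.20 in AdGFP with PE, against 2.20 to 2.32 in AdKlf2 and 2.30 to 2.39 in AdKlf2 with PE.

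**Figure D2:**
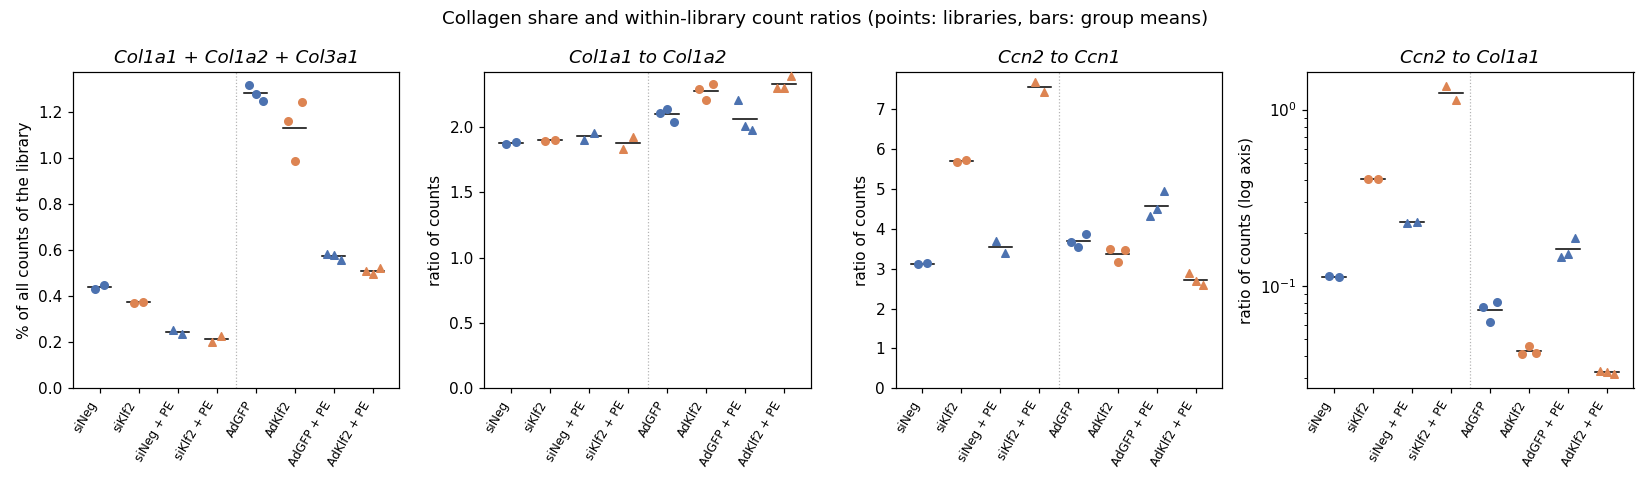
Share of all counts of a library in the 3 collagen genes (% axis) and the count ratios of Col1a1 to Col1a2, Ccn2 to Ccn1 and Ccn2 to Col1a1 (last panel on a log axis), with points for libraries and bars for group means. Ratios depend on gene length and are read only across groups: the collagen share is lower with PE in each table, and the ratio of Ccn2 to Ccn1 has means of 7.56 in siKlf2 with PE and 2.72 in AdKlf2 with PE.

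Fn1 changed with PE in all 4 arms and in all 4 KLF2 comparisons. It encodes fibronectin, the glycoprotein on which collagen fibrils are laid down and to which integrins bind. Fn1 stood at 1331 and 1434 CPM in siNeg, 2468 and 2505 in siKlf2, 1025 and 1046 in siNeg with PE, and 1487 and 1664 in siKlf2 with PE. With the viruses it stood at 2252, 2129 and 1756 CPM in AdGFP, 1657, 1670.2 and 1537 in AdKlf2, 1362, 1267 and 1309 in AdGFP with PE, and 1045, 1021 and 1065.5 in AdKlf2 with PE. No neighbouring groups overlapped in either table, and with PE the siKlf2 libraries still lay above the siNeg libraries without PE. The log2 fold change of Fn1 in siKlf2 was 0.85 (SE 0.0521, adjusted p = 1.37e-07) without PE and 0.61 (SE 0.052, adjusted p = 1.9e-06) with PE, a 1.80-fold and a 1.52-fold rise. In AdKlf2 it was -0.34 (SE 0.067, adjusted p = 0.00061) without PE and -0.33 (SE 0.0671, adjusted p = 0.000267) with PE. PE gave -0.42, -0.66, -0.64 and -0.64 in siNeg, siKlf2, AdGFP and AdKlf2, all 4 called. The knockdown interaction of Fn1, the difference between its 2 siKlf2 effects, was -0.24 (SE 0.0733, adjusted p = 0.0502) and not called. It was called with library totals (adjusted p = 0.0123), no filter (0.000739), DESeq2 (0.00502), the replicate block (0.0179) and voom (0.0404). RLE size factors and halved counts left it uncalled. Without siNeg replicate 2, siNeg with PE replicate 1 or siKlf2 with PE replicate 2 its value was -0.30, -0.26 and -0.31. It was smaller in size without siNeg replicate 1, siKlf2 replicate 2 or siNeg with PE replicate 2.

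Spp1 was lower in AdKlf2 and showed no called difference in siKlf2. It encodes osteopontin, a secreted phosphoprotein that binds integrins and CD44 and is known from macrophages and activated fibroblasts. Its level was 27.5 and 26.5 CPM in siNeg, 26.1 and 30.1 in siKlf2, 21.3 and 25.0 in siNeg with PE, and 21.8 and 22.3 in siKlf2 with PE, so siKlf2 and siNeg overlapped at both PE states. Across the virus libraries it was 27.9, 20.4 and 23.1 CPM in AdGFP, 13.5, 13.2 and 11.8 in AdKlf2, 31.4, 26.6 and 33.6 in AdGFP with PE, and 12.6, 7.93 and 13.2 in AdKlf2 with PE. All 6 AdKlf2 libraries lay below all 6 AdGFP libraries. The libraries with and without PE overlapped in AdGFP and in AdKlf2, but not in siNeg or siKlf2. AdKlf2 lowered Spp1 by -0.89 on the log2 scale (SE 0.158, adjusted p = 0.000198) without PE and by -1.43 (SE 0.16, adjusted p = 2.38e-07) with PE, a 1.85-fold and a 2.69-fold difference. In siKlf2 the log2 fold changes were 0.06 (adjusted p = 0.554) and -0.07 (0.483), and scaled to library totals the first turned to -0.14 (0.0975) and the second was called at -0.33 (0.000857). PE lowered Spp1 in siKlf2, at -0.35 (SE 0.0775, adjusted p = 0.00289). The PE difference in siNeg was -0.22 (SE 0.0767, adjusted p = 0.0317), and this call was lost in the fits without siNeg replicate 1 or 2, siNeg with PE replicate 1, or siKlf2 with PE replicate 1 or 2 (adjusted p = 0.137, 0.0614, 0.242, 0.061 and 0.062). In AdGFP the PE difference was 0.36 (SE 0.155, adjusted p = 0.0806) and in AdKlf2 -0.18 (0.361), and their difference, the overexpression interaction, was -0.54 (SE 0.223, adjusted p = 0.0547). That interaction was called without AdGFP replicate 1, AdKlf2 replicate 3, AdGFP with PE replicate 2 or AdKlf2 with PE replicate 1 or 3 (adjusted p = 0.0144, 0.0391, 0.0298, 0.0356 and 0.0231). It was also called with library totals (0.0281), no filter (0.00886), the replicate block (0.0193), voom (0.0294) and halved counts (0.0393). The PE difference in AdGFP was called without AdGFP replicate 1 or AdKlf2 with PE replicate 2 (adjusted p = 0.0267 and 0.0334), with no filter (0.0373), the replicate block (0.0418), voom (0.0366) or only the 2 groups (0.0345). With library totals the PE difference in AdKlf2 was called at -0.38 (adjusted p = 0.0438).

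Ccn2 rose in siKlf2 and fell in AdKlf2, and both differences were larger with PE. It encodes CCN2, also called connective tissue growth factor, a secreted matrix-binding protein that promotes matrix production by fibroblasts. Ccn2 was at 231 and 237 CPM in siNeg, 756 and 788 in siKlf2, 303 and 296 in siNeg with PE, and 1618 and 1551 in siKlf2 with PE. In the overexpression table it was at 515, 406 and 505 CPM in AdGFP, 256, 241 and 278 in AdKlf2, 501, 488 and 585 in AdGFP with PE, and 106, 99.7 and 108 in AdKlf2 with PE. The 4 knockdown groups did not overlap, and in the overexpression table only the AdGFP groups with and without PE did. In siKlf2 the log2 fold change of Ccn2 was 1.72 (SE 0.0368, adjusted p = 5.88e-11) without PE and 2.40 (SE 0.0377, adjusted p = 9.27e-12) with PE, a 3.30-fold and a 5.30-fold rise. Of the genes tested, 2.48% had a larger change in either direction in siKlf2 without PE and 0.842% with PE. In AdKlf2 it was -0.88 (SE 0.0837, adjusted p = 1.01e-07) without PE and -2.32 (SE 0.0877, adjusted p = 2.92e-14) with PE, where the level was 5.01-fold lower and 13.7% of genes had a larger change.

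The response of Ccn2 to PE thus took a different size or direction in each arm. It was 0.35 (SE 0.036, adjusted p = 8.5e-06) in siNeg, 1.04 (SE 0.0361, adjusted p = 1.43e-09) in siKlf2, 0.14 (SE 0.0829, adjusted p = 0.205) in AdGFP and -1.30 (SE 0.0854, adjusted p = 1.66e-10) in AdKlf2. The differences between arms were themselves called, at 0.68 (SE 0.0507, adjusted p = 1.57e-05) for knockdown and -1.44 (SE 0.119, adjusted p = 7.94e-09) for overexpression. Fitted on AdGFP with PE and AdKlf2 with PE alone, or on the 2 AdKlf2 groups alone, the falls of Ccn2 were also called, so neither rests on the AdGFP libraries without PE.

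Ccn1 moved in the same directions as Ccn2 in the 4 KLF2 comparisons, by smaller amounts. It encodes CCN1, a second member of the CCN family that binds integrins and acts on adhesion and fibroblast senescence. Ccn1 was at 74.0 and 75.7 CPM in siNeg, 133 and 137 in siKlf2, 81.7 and 86.8 in siNeg with PE, and 210.4 and 209 in siKlf2 with PE. With the viruses it was at 140.2, 115 and 131 CPM in AdGFP, 73.1, 75.9 and 79.9 in AdKlf2, 116, 108 and 118 in AdGFP with PE, and 36.7, 37.1 and 41.7 in AdKlf2 with PE. As for Ccn2, the AdGFP groups with and without PE were the only pair that overlapped. The log2 fold changes in siKlf2 were 0.85 (SE 0.0352, adjusted p = 6.44e-09) without PE and 1.31 (SE 0.0354, adjusted p = 2.45e-10) with PE. Those in AdKlf2 were -0.75 (SE 0.0741, adjusted p = 1.67e-07) without PE and -1.57 (SE 0.0767, adjusted p = 1.29e-12) with PE, so that Ccn1 was 2.49-fold higher in siKlf2 and 2.97-fold lower in AdKlf2 when PE was present. PE changed it by 0.17 (adjusted p = 0.00178) in siNeg, 0.63 (5.71e-08) in siKlf2, -0.17 (0.0847, not called) in AdGFP and -0.99 (1.67e-09) in AdKlf2. The siNeg call was lost with scaling to library totals (0.07, adjusted p = 0.124), and the AdGFP difference was called without AdGFP replicate 2 (-0.25, adjusted p = 0.00973), with library totals (-0.31, 0.00278) and with no filter (-0.18, 0.0445). Both interactions of Ccn1 were called, at 0.46 (SE 0.0494, adjusted p = 0.000138) for knockdown and -0.82 (SE 0.106, adjusted p = 2.92e-06) for overexpression.

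The count ratio of Ccn2 to Ccn1 within a library was compared between groups. Its group means were 3.13 ± 0.0111 (SD, n = 2) in siNeg, 5.71 ± 0.0454 in siKlf2, 3.56 ± 0.212 in siNeg with PE and 7.56 ± 0.179 in siKlf2 with PE. In the overexpression table they were 3.69 ± 0.166 (SD, n = 3) in AdGFP, 3.38 ± 0.181 in AdKlf2, 4.59 ± 0.321 in AdGFP with PE and 2.72 ± 0.154 in AdKlf2 with PE. The ratio was thus highest in siKlf2 with PE, at 7.44 and 7.69 in its libraries, and lowest in AdKlf2 with PE, at 2.60 to 2.89. The ratio of Ccn2 to Col1a1 had means of 0.113 in siNeg, 0.404 in siKlf2, 0.230 in siNeg with PE and 1.24 in siKlf2 with PE. Its means were 0.0736 in AdGFP, 0.043 in AdKlf2, 0.161 in AdGFP with PE and 0.0325 in AdKlf2 with PE.

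The promoters of Ccn2, Ccn1 and Tgfb1 are shown because these 3 genes had called interactions, with Tgfb1 moving opposite to the others. RefSeq's table for the rat build GRCr8 held promoters for 6 of the 10 genes, and the 250 bases before the start site are printed 5′ to 3′ on the gene's strand. They lie at chr1:22624615-22624864 on the minus strand for Ccn2, chr2:237225690-237225939 on the minus strand for Ccn1 and chr1:90324062-90324311 on the plus strand for Tgfb1. Capitals mark CATTCC or its reverse complement GGAATG, the core that TEAD factors are known to bind, in Ccn2 and Ccn1, and CACCC, a core that KLF factors are known to bind, in Tgfb1.
Ccn2: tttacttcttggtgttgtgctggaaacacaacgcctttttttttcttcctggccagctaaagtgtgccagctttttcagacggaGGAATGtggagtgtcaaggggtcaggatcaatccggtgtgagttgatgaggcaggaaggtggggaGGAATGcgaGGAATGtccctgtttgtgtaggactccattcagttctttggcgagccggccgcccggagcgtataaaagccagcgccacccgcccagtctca
Ccn1: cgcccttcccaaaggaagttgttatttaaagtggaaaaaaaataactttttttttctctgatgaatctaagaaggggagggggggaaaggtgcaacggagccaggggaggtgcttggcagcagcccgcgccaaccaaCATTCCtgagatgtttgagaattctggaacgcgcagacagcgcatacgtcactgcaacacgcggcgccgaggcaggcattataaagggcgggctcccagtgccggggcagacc
Tgfb1: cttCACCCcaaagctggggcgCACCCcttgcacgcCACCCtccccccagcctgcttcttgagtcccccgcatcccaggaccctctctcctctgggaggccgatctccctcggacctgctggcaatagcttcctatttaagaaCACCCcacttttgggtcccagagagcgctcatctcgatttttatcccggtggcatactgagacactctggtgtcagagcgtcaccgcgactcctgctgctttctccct

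In these windows Ccn2 held the TEAD core 3 times, with first bases at -166, -101 and -92 from the start, and Ccn1 held it once, at -113. Tgfb1 held the CACCC core 4 times, at -247, -229, -215 and -108, where Ccn2 held it once, at -16, and Ccn1 did not hold it. Searched on both strands, CATTCC was present in 12.1% and CACCC in 49.2% of 33469 rat promoter windows of the same length, so the CACCC core is common. A TATAAA box, searched on 1 strand and present in 8.06% of windows, began at -31 in Ccn2 and -34 in Ccn1 and was not in the Tgfb1 window. Of the other 3 genes with a promoter in the table, Timp1 held CATTCC once, at -225, as often as Ccn1, and CACCC at -115 and -59, and it was called in 1 of the 4 KLF2 comparisons. Col1a2 held CACCC at -198 and TATAAA at -170, and Spp1 held TATAAA at -204. These letters describe the sequence and show no binding.

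Mmp2 was higher in siKlf2 and lower in AdKlf2, as Fn1 was. It encodes the gelatinase MMP-2, which cuts denatured and basement membrane collagen. Mmp2 was at 271 and 259 CPM in siNeg, 378 and 384 in siKlf2, 227 and 218 in siNeg with PE, and 341 and 362 in siKlf2 with PE, with no overlap between groups. In the overexpression table it was at 264, 268 and 231 CPM in AdGFP, 221, 211 and 219.6 in AdKlf2, 236, 223 and 219 in AdGFP with PE, and 184, 174 and 195 in AdKlf2 with PE. There AdGFP with PE overlapped both AdGFP and AdKlf2, and AdKlf2 with PE lay below all other groups. The log2 fold change was 0.52 (SE 0.0385, adjusted p = 5.72e-07) and 0.66 (SE 0.0386, adjusted p = 8.88e-08) in siKlf2 without and with PE, and -0.29 (SE 0.0612, adjusted p = 0.000383) in AdKlf2 with PE. Without PE it was -0.23 (SE 0.0609, adjusted p = 0.0065) in AdKlf2, a call lost without AdGFP replicate 1 or 2 or AdKlf2 replicate 2 (adjusted p = 0.0503, 0.0694 and 0.0621). PE lowered Mmp2 by -0.25 in siNeg and -0.23 in AdKlf2. Its PE differences in siKlf2 (-0.12, adjusted p = 0.0264) and AdGFP (-0.17, 0.0364) were less firm. The first was not called without siKlf2 replicate 1 or 2 or siKlf2 with PE replicate 1 (adjusted p = 0.0929, 0.13 and 0.279) or with RLE size factors (0.0545), and the second was not called without AdGFP replicate 1 or 2 or AdGFP with PE replicate 2 or 3 (0.0786, 0.108, 0.0849 and 0.107).

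Timp1 was the member that rose with PE in all 4 arms. It encodes TIMP-1, a secreted inhibitor of matrix metalloproteinases. Timp1 stood at 32.5 and 34.2 CPM in siNeg, 28.5 and 28.2 in siKlf2, 52.5 and 56.8 in siNeg with PE, and 53.1 and 53.8 in siKlf2 with PE. Across the virus libraries it stood at 27.7, 21.5 and 30.9 CPM in AdGFP, 28.9, 27.0 and 31.1 in AdKlf2, 64.5, 66.4 and 57.6 in AdGFP with PE, and 72.4, 62.5 and 72.9 in AdKlf2 with PE. Every PE library lay above every library without PE in its table, and the arms overlapped except for siKlf2 below siNeg without PE. PE gave log2 fold changes of 0.71 (SE 0.0428, adjusted p = 1.19e-07) in siNeg, 0.91 (SE 0.0434, adjusted p = 1.65e-08) in siKlf2, 1.24 (SE 0.11, adjusted p = 6.41e-08) in AdGFP and 1.26 (SE 0.11, adjusted p = 9.17e-09) in AdKlf2. Of its KLF2 differences only that in siKlf2 without PE was called, at -0.23 (SE 0.0434, adjusted p = 0.000834), against -0.03 (0.563) with PE and 0.12 (0.447) and 0.14 (0.252) in AdKlf2. With limma voom the AdKlf2 difference with PE was called (0.19, adjusted p = 0.0113), and scaled to library totals so was the siKlf2 difference with PE (-0.30, adjusted p = 5.35e-05). The knockdown interaction of Timp1 was 0.20 (SE 0.0606, adjusted p = 0.05, just not called). It was called with RLE size factors (0.0489), no filter (0.0227), DESeq2 (0.0244), the replicate block (0.0354) and voom (0.0437), but not with library totals (0.18). Without siNeg with PE replicate 2 its value was 0.26. The count ratio of Timp1 to Mmp2 had means of 0.126 in siNeg and 0.246 in siNeg with PE, and of 0.106 in AdGFP and 0.278 in AdGFP with PE.

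Tgfb1 was lower in siKlf2 and higher in AdKlf2, opposite to Ccn2 and Ccn1. It encodes transforming growth factor β1, a cytokine stored in the matrix in latent form. Tgfb1 was at 20.04 and 20.18 CPM in siNeg, 14.9 and 15.2 in siKlf2, 18.7 and 17.4 in siNeg with PE, and 12.9 and 14.6 in siKlf2 with PE. With the viruses it was at 35.7, 31.1 and 36.3 CPM in AdGFP, 39.9, 40.2 and 45.1 in AdKlf2, 36.5, 36.0 and 38.7 in AdGFP with PE, and 185, 168 and 186 in AdKlf2 with PE. The AdKlf2 libraries with PE lay far above all others, the AdGFP groups overlapped, and each siKlf2 library lay below each siNeg library. In siKlf2 the log2 fold change was -0.42 (SE 0.0605, adjusted p = 0.000126) without PE and -0.39 (SE 0.0612, adjusted p = 0.000232) with PE. In AdKlf2 it was 0.28 (SE 0.0743, adjusted p = 0.0064) without PE and 2.28 (SE 0.0761, adjusted p = 4.85e-15) with PE. The latter was a 4.85-fold rise, and 14.1% of genes had a larger change in either direction.

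Tgfb1 had no called PE difference in siNeg, siKlf2 or AdGFP, with log2 fold changes of -0.15 (adjusted p = 0.0526) in siNeg, -0.13 (0.114) in siKlf2 and 0.11 (0.294) in AdGFP, against 2.11 (SE 0.0752, adjusted p = 2.89e-14) in AdKlf2. Scaling to library totals turned the AdGFP value to -0.03 and called the siNeg (-0.26) and siKlf2 (-0.30) values lower. The siNeg value was also called without siNeg with PE replicate 1 or siKlf2 with PE replicate 1 or 2 (adjusted p = 0.0276, 0.0251 and 0.0257) and with no filter (0.0323), voom (0.0458), halved counts (0.0451) or only the 2 groups (0.0358), and the siKlf2 value without siKlf2 with PE replicate 2 (0.0235). The overexpression interaction of Tgfb1 was 2.00 (SE 0.105, adjusted p = 1.67e-11). Its knockdown interaction was 0.03 (SE 0.086, adjusted p = 0.884). While the cytokine's transcript was 4.85-fold higher in AdKlf2 with PE than in AdGFP with PE, Ccn2, Ccn1, Spp1, Fn1, Mmp2 and Col1a2 were lower in the same comparison, and Col1a1, Col3a1 and Timp1 were not called.

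**Figure D3:**
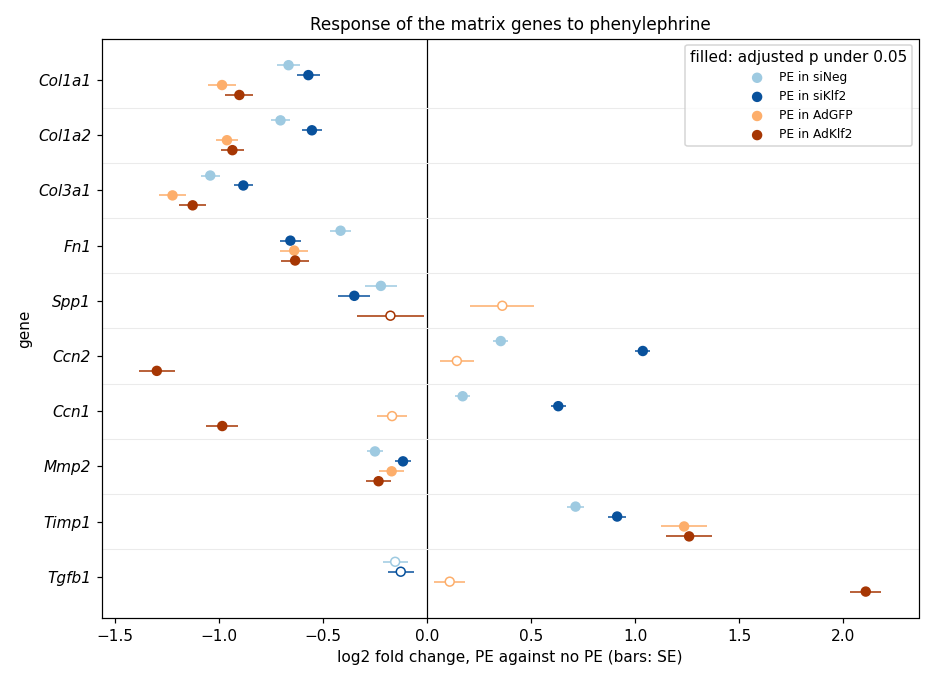
Log2 fold change of PE against no PE (x axis, bars are SE) for the 10 genes in the siNeg, siKlf2, AdGFP and AdKlf2 arms, with filled points for an adjusted p under 0.05. The 3 collagens and Fn1 lie below 0 and Timp1 above 0 in all 4 arms, while Ccn2 and Ccn1 lie above 0 in siKlf2 and below it in AdKlf2, and Tgfb1 lies at 2.11 in AdKlf2.

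Counted over the 10 genes, PE gave 9 calls in siNeg (3 higher, 6 lower), and in that comparison 49.1% of all genes tested were called, 24.8% higher and 24.3% lower. In siKlf2 it gave 9 calls (3 higher, 6 lower) against 48.1% of all genes, 24.4% higher and 23.7% lower. In AdGFP it gave 6 (1 higher, 5 lower) against 34.6%, 18.3% higher and 16.3% lower, and in AdKlf2 9 (2 higher, 7 lower) against 61.3%, 31.6% higher and 29.6% lower. Called lower were thus 5 to 7 of the 10 in each arm, and the background ran from 16.3% to 29.6%. With a fold of at least 1.5 the calls were 4, 5, 5 and 8 of 10, against 13.9%, 13.7%, 14% and 39.9% of all genes in siNeg, siKlf2, AdGFP and AdKlf2. The median log2 fold change of the 10 genes was -0.24, -0.24, -0.17 and -0.77 in the same order, beside -0.02, -0.02, -0.02 and -0.01 over all genes tested. Col1a1, Col1a2, Col3a1, Fn1 and Mmp2 were lower with PE in all 4 arms, as were 6.05% of the 15944 genes tested in both tables, and Timp1 was higher in all 4, as were 6.23%. The 5 included Mmp2 through its 2 less firm calls, and without 1 of the libraries named for it the count was 4. Asked for in the 3 arms other than AdGFP only, a looser rule, the count was also 5, and only Col3a1 fell at least 1.5-fold in all 4. For that looser rule and that fold the share of all genes was not computed.

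**Figure D4:**
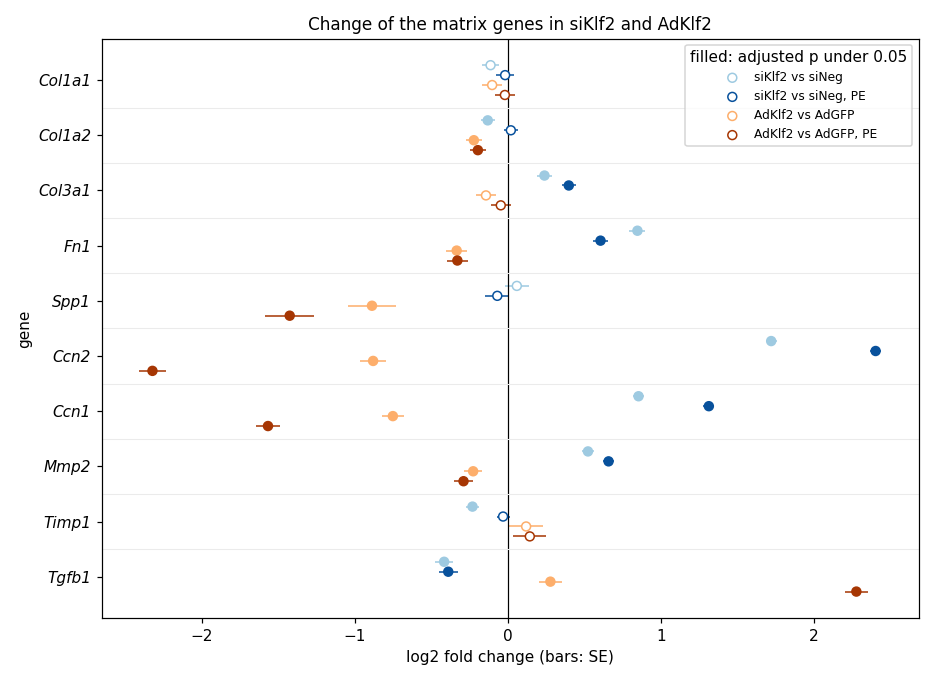
Log2 fold change (x axis, bars are SE) of siKlf2 against siNeg and AdKlf2 against AdGFP, without and with PE, for the 10 genes, with filled points for an adjusted p under 0.05. Ccn2, Ccn1, Fn1 and Mmp2 lie right of 0 in siKlf2 and left of 0 in AdKlf2, Tgfb1 lies the other way round, and Col1a1 has only open points.

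The siKlf2 comparison gave 8 calls of 10 without PE (5 higher, 3 lower), where 53.9% of all genes were called, 27.2% higher and 26.8% lower. With PE it gave 6 (5 higher, 1 lower) against 54.3%, 26.1% higher and 28.2% lower. The AdKlf2 comparison gave 7 calls without PE (1 higher, 6 lower) against 35.1%, 20% higher and 15.1% lower, and 7 with PE (1 higher, 6 lower) against 65.8%, 33.6% higher and 32.1% lower. The total called with PE was therefore near the share of all genes in both tables, with 5 of the 6 calls in siKlf2 higher and 6 of the 7 in AdKlf2 lower. The siKlf2 split depended on the scaling. With library totals, 4 genes rose and 4 fell when PE was absent, and 5 rose and 5 fell when it was present. Among those lower with PE, Col1a1, Col1a2, Spp1 and Timp1 joined Tgfb1. Of all genes called with that scaling, 21.9% were higher when PE was absent and 15.9% when it was present. More genes of the whole table were called than the 9802 and 9866 of the main fit. In AdKlf2 that scaling left 1 gene higher at each PE state, with 7 lower when PE was absent and 6 when it was present. There 50.4% of all called genes were higher without PE and 45.9% with PE. With a fold of at least 1.5 the calls were 3, 4, 3 and 4 of 10, beside 17.3%, 18%, 15.8% and 46.1% of all genes, in siKlf2 without and with PE and AdKlf2 without and with PE. In the same order the median log2 fold change of the 10 was 0.15, 0.21, -0.22 and -0.24, beside -0.02, -0.04, 0 and -0.03 over all genes. Fn1, Ccn2, Ccn1 and Mmp2 were higher in both siKlf2 comparisons and lower in both AdKlf2 comparisons, a pattern that 3.54% of the 15944 genes showed. Tgfb1 was lower in both siKlf2 and higher in both AdKlf2 comparisons, as were 3.95%. The comparison of AdKlf2 with AdGFP without PE rests on the AdGFP libraries that stood apart, and asking only for the other 3 comparisons, with that of AdKlf2 with PE fitted on its 2 groups, gave the same counts of 4 and 1 by a looser rule. Mmp2 drops from the 4 without AdGFP replicate 1 or 2 or AdKlf2 replicate 2, and with a fold of at least 1.5 in all 4 comparisons Ccn2 and Ccn1 are left. The share of all genes was not computed for the looser rule or with that fold, so these counts have no background here.

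The knockdown interaction was called for 2 of 10 genes, both higher, where 14.4% of all genes were called, 7.08% higher and 7.35% lower, and for 1 gene when a 1.5-fold change was also asked for, beside 2.46%. The overexpression interaction was called for 3 of 10 (1 higher, 2 lower), each with a fold of at least 1.5, where 49.1% of all genes were called, 25.1% higher and 24% lower, and 35.1% with that fold. Ccn2 and Ccn1 made up both knockdown calls and both lower overexpression calls, and Tgfb1 was the higher one. The median of the 10 was 0.14 and 0.01, beside -0.01 and -0.02 over all genes. The siKlf2 comparisons share libraries with the PE comparisons of their table, and so do those of AdKlf2, so the counts are not independent of each other. Scaled to library totals, the share of higher among called genes went from 50.3% to 21.9% and from 48.1% to 15.9% in siKlf2 without and with PE, from 50.6% to 33.2% and from 50.8% to 23.6% for PE in siNeg and siKlf2, and from 49.1% to 24.2% for the knockdown interaction. It went from 52.9% to 30.1% for PE in AdGFP and from 51.7% to 39.2% for PE in AdKlf2, and by under 10 points elsewhere. No called value of the 10 genes changed sign with that scaling.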

How the data were processed

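RNA was measured in 20 libraries of 8 groups, assigned from the sample titles because the treatment label reads PE for all of them. Trim Galore, STAR and featureCounts are the authors' tools per the submitters' processing notes, with the build mRatBN7.2 and no versions. The 2 deposited tables hold whole-number counts per Ensembl ID. Whether counting used strand is not given in the sources used here. Even numbers were over-represented among low counts (of 1 to 20), at 59.8% to 66.6% for knockdown and 72.1% to 82.2% for overexpression, so a count may not be an independent fragment.

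Each table was fitted with edgeR 4.0.16 in R 4.3.3, after filterByExpr (minimum count 10, minimum total 15) and TMM scaling, with a coefficient per group and 5 contrasts. Tests were two-sided and adjusted over all genes tested. The procedure was tested on simulated data. The biological coefficient of variation was 0.0490 for knockdown and 0.132 for overexpression. Replicates of a group differed by more than sampling noise, with a chi-square per degree of freedom of at least 5.53. Alternatives were RLE factors, library totals, no filter, DESeq2 1.42.0, limma 3.58.1 voom with quality weights, a replicate block, halved counts, only the 2 groups compared, a fold of at least 1.5 and each library left out. Leaving out all AdGFP libraries without PE was chosen after seeing the data. Figures were made with matplotlib 3.10.9.

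The 10 genes and all lists were chosen with earlier results of these data known, and by rule all 10 are named. Genes most like Col1a1, Ccn2 and Spp1 were ranked by the smaller of their Pearson correlations of log2 CPM in the 2 tables, among 8765 genes of at least 10 CPM. No ID matched a symbol in the reference used, so the lists of matrix pathway genes and cell markers were not analysed here. The KLF2 peak list was not used, because its build differs from that of the reference.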

Additional observations from a re-analysis of the deposited data

Results flagged for a closer look

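Of the 20 interaction tests on the 10 genes, 5 were called by edgeR's quasi-likelihood test, where the KLF2 effect differed between cells with and without PE. The knockdown interaction was called for 2 of the 10 beside 14.4% of all genes. The overexpression interaction was called for 3 of the 10 beside 49.1% of all genes. For Ccn2 the siKlf2 effect was larger with PE by 0.68 on the log2 scale (adjusted p = 1.57e-05), and for Ccn1 by 0.46 (adjusted p = 0.000138). The AdKlf2 effect with PE minus that without was -1.44 for Ccn2 (adjusted p = 7.94e-09) and -0.82 for Ccn1 (adjusted p = 2.92e-06). For Tgfb1 it was 2.00 (adjusted p = 1.67e-11), with 168 to 186 CPM in the 3 AdKlf2 libraries with PE and 31.1 to 45.1 CPM in the other 9 libraries. The 3 overexpression values rest in part on the AdGFP libraries without PE, which stood apart in their number of low-count genes. The part of that in these values was not tested.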

How the results depend on the processing

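Over 100 values (10 genes in 10 comparisons, 66 of them called), 1780 single-gene alternatives were run. In 1646 the direction and the side of the threshold were those reported, 59 gained a call, 23 lost one and 52 changed sign. None of the called values changed sign, and 1 change of sign was called in its alternative, Col1a2 in siKlf2 with PE at -0.25 with library totals. The other sign changes were of uncalled values near 0.

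With a minimum fold of 1.5 the genes called numbered 3 in siKlf2 and 3 in AdKlf2 without PE, 4 in AdKlf2 with PE, 4 and 5 for PE in siNeg and siKlf2, and 1 for the knockdown interaction. With that minimum in every comparison, 2 genes were higher in siKlf2 and lower in AdKlf2, 0 the other way round, and 1 was lower with PE in all 4 arms. For the counts in single comparisons the shares of all genes were 17.3%, 15.8%, 46.1%, 13.9%, 13.7% and 2.46%, in the order named. The shares for the patterns over all 4 comparisons or arms were not computed. With library totals 10 genes were called in siKlf2 with PE, 5 higher and 5 lower. That fit called more genes of the whole table than the 9866 of the main fit. Of all genes called, 15.9% were higher with library totals and 48.1% in the main fit. The knockdown interaction, called for 2 genes, was called for 5 without the filter and with DESeq2, and for 4 with voom. Fn1, Timp1 or Col3a1 were the genes that joined Ccn2 and Ccn1. Each of these fits also called more genes of the whole table than the 2622 of the main fit. The shares of all genes in them are not given here. Without siKlf2 with PE replicate 1 the value of Col1a2 was 0.23, against 0.15 in the main fit. The cause was not tested.

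Libraries with the same replicate number did not deviate together across groups, with correlations of -0.0432 to 0.0446, so they were not taken as pairs. With the replicate block the knockdown interaction was called for 4 genes, the overexpression interaction for 4 and PE in AdGFP for 7. The counts over all genes in that fit are not given here.

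With library totals the log2 value was -0.14 for Spp1 in siKlf2 without PE, -0.042 for the knockdown interaction of Tgfb1, -0.030 for Tgfb1 with PE in AdGFP, and -0.034, -0.055 and -0.037 for the overexpression interactions of Col1a2, Fn1 and Timp1. Those 3 interactions were -0.014, -0.036 and -0.019 without the filter, and that of Fn1 was -0.0054 with counts halved. Col1a1 in siKlf2 with PE was 0.0081 with RLE factors and with DESeq2, and 0.0032 with only the 2 groups. Col1a1 in AdKlf2 with PE was 0.014 with RLE factors and with DESeq2, and 0.0012 with voom.

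In leave-one-out fits the uncalled values that changed sign ranged as follows. In siKlf2 with PE, Col1a1 ranged from -0.098 to 0.10, Col1a2 from -0.024 to 0.10, Spp1 from -0.18 to 0.049 and Timp1 from -0.086 to 0.026. Spp1 in siKlf2 without PE ranged from -0.046 to 0.17, and the knockdown interaction of Tgfb1 from -0.053 to 0.12. Col1a1 in AdKlf2 ranged from -0.14 to 0.015 without PE and from -0.035 to 0.043 with PE, and Col3a1 with PE from -0.087 to 0.011. The overexpression interaction ranged from -0.017 to 0.14 for Col1a1, -0.054 to 0.065 for Col1a2, -0.075 to 0.10 for Fn1 and -0.099 to 0.14 for Timp1. A group left with 1 library was taken to vary like the other groups. With 2 or 3 libraries a group, differences of small size were within reach of a single library. The lowest level of a member in a library was 7.93 CPM, for Spp1, whose SE was also the largest of the 10 in the overexpression table.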

Other observations

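Of the genes outside the 10, ENSRNOG00000005670 had the pattern most like that of Ccn2, with a Pearson r of log2 CPM of 0.988 over the 8 knockdown libraries and 0.985 over the 12 overexpression libraries. For Col1a1 it was ENSRNOG00000012442, with 0.987 and 0.977. The best match of Spp1 was less close, with 0.908 in each table. The libraries share their groups, so these values are descriptions without a test, and the symbols of these IDs were not in the reference used. Together the 10 genes took 0.669% of all counts in siNeg, 0.750% in siKlf2, 0.427% in siNeg with PE and 0.545% in siKlf2 with PE. Their share was 1.60% in AdGFP, 1.37% in AdKlf2, 0.798% in AdGFP with PE and 0.659% in AdKlf2 with PE. Like those of the collagens, these shares are of plain library totals. The count ratio of Tgfb1 to Col1a1 had means of 0.00533 in AdGFP, 0.00697 in AdKlf2, 0.0114 in AdGFP with PE and 0.0559 in AdKlf2 with PE.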
